A study of Mus musculus with 8 samples.

Results

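The 45 nuclear genes described here encode the subunits of succinate dehydrogenase (complex II), the cytochrome bc1 complex (complex III) with its carrier cytochrome c, cytochrome c oxidase (complex IV) and ATP synthase (complex V). They were taken by symbol from the 31053 genes of the count table as the protein-coding genes Sdha to Sdhd, Cyc1, Cycs and those whose names begin with Uqcr, Cox4 to Cox8 or Atp5, without Cox7a1 and Cox8b. A summed raw count of at least 20 over the 8 libraries was also required, which left out 3 of 48 genes, namely Cox8c with 1 count, and Cox7b2 and a second Atp5o entry with 0. Complex II had 4 members, complex III with cytochrome c had 10, complex IV had 14 and complex V had 17. The names also brought in Atp5s, a coupling factor-like gene that is not a structural subunit, and Cox7a2l, a factor of respiratory supercomplexes.

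Brown adipose tissue (BAT) of 8-week-old male mice was profiled by bulk RNA-seq, with 4 libraries from wild-type (WT) mice and 4 from db/db mice, which carry a mutation of the leptin receptor gene Lepr, overeat and become obese. The labels give the strain C57BL6/J for both, and the methods give B6.BKS(D)-Leprdb/J for db/db. The study's text and its list of resources name different suppliers of the WT mice. According to the methods, tissues were harvested after a fast. Lepr itself had 0 counts in all 8 libraries, so its transcript did not check the labels. No other allele or treatment separated the groups, and the mutation is carried by all cells, so that an effect within BAT and an effect of the obesity cannot be told apart. The labels name both brown adipose tissue and the stromal vascular fraction, the cells that remain once mature adipocytes are removed. Mature adipocyte transcripts were present in every library, with the uncoupling protein Ucp1 between 1056 and 2754 CPM (counts scaled to a common library size, per 1e6 counts of the genes kept) and the lipid droplet protein Cidea between 1254 and 4787 CPM, so the libraries are treated here as whole tissue. Each WT library held 2374079 to 2615009 counts and each db/db library 2382722 to 3240074, which puts a level of 3 counts between 0.902 and 1.33 CPM. Across genes, r was 0.94 to 0.96 within a genotype and 0.83 to 0.90 between the genotypes.

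Complex II passes electrons from succinate to ubiquinone, complex III hands them to cytochrome c, and complex IV gives them to oxygen. Complexes III and IV pump protons as they do so, and ATP synthase uses the returning protons to make ATP. In brown adipocytes UCP1 lets protons return without ATP synthesis and the energy is released as heat. Mouse BAT is known for a high content of respiratory chain and a low content of ATP synthase, and the c subunit of the enzyme, encoded by Atp5g1, Atp5g2 and Atp5g3, is held to limit its amount. Several subunits of complex IV exist as pairs of isoforms from separate genes, among them Cox6a1, found in most tissues, and Cox6a2, the form of heart and skeletal muscle.

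The coding sequences of the Cox6a pair are shown because they had the largest fall (Cox6a1) and the largest rise (Cox6a2) of the members tested. Cox6a1 is given from base 37 to base 336 and Cox6a2 whole, 5′ to 3′ on the sense strand from GENCODE M21, with Cox6a1 on chromosome 5 (minus strand, 115345642 to 115348981) and Cox6a2 on chromosome 7 (minus strand, 128205435 to 128206387) of mm10, and capitals mark aligned bases that differ between the isoforms.
Cox6a1: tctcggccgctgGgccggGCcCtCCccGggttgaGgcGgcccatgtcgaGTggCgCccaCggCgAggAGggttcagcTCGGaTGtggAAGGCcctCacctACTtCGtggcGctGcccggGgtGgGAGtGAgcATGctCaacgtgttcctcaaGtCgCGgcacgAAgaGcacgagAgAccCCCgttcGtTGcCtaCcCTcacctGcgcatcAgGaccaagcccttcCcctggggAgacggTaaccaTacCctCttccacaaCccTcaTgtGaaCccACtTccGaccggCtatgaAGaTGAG
Cox6a2: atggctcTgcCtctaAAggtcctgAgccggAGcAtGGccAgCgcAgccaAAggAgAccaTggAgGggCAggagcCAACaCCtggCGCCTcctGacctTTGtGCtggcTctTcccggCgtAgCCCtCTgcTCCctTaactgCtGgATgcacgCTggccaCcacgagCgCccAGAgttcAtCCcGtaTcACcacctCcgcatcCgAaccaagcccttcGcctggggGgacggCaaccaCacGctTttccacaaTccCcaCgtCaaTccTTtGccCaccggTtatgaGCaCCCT
The coding sequences were 336 and 291 bases long, and 191 of 287 aligned bases (66.6%) were identical, with a longest identical run of 12 bases. The coding sequences of Atp5g1 and Atp5g3 were identical at 70.7% of aligned bases with a longest run of 11, and those of Cox4i1 and Cox4i2 at 69.6% with a longest run of 14. Atp5g1 and Atp5g2 shared 76.5% of aligned bases and a longest run of 20. All these runs were shorter than the 75-base reads.

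Proximal promoter sequence is shown for Cox6a1, which had the largest fall, and for Atp5g1 and Atp5g3, which were called higher. RefSeq (GRCm38.p6) gave a promoter for 32 of the 45 members. The stretches below lie upstream of the RefSeq transcription start, 5′ to 3′ on the strand of the gene, without bases that GENCODE M21 places in a protein-coding exon. Capitals mark letters of nuclear respiratory factor 1 (NRF1), which are GCGCA, any base and GCGC, or the AAGGTCA site of oestrogen-related receptors (ERR), searched on both strands.
Cox6a1, chr5:115348982-115349208: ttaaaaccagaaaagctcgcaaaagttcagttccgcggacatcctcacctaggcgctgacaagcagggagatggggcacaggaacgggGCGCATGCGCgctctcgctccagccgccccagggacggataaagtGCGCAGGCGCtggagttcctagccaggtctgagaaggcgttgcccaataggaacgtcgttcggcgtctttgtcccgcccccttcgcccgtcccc
Atp5g1, chr11:96075671-96075881: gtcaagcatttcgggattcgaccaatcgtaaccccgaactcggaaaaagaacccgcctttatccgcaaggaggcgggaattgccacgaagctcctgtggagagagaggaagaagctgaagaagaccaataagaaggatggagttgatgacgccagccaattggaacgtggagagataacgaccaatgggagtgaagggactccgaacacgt
Atp5g3, chr2:73911327-73911576: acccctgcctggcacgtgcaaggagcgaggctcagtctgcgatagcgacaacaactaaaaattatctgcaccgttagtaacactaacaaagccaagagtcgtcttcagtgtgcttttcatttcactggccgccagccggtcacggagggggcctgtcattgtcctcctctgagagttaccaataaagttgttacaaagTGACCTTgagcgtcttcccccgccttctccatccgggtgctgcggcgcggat
Cox6a1 held the NRF1 letters at bases -162 to -153 and -117 to -108 from its start, Atp5g3 held the ERR letters at -52 to -46 on the opposite strand, and Atp5g1 held neither. Over the 250 bases upstream of each start, 7 of the 32 members (21.9%) held the NRF1 letters against 4.23% of 27025 genes, namely Sdha, Sdhd, Cox6a1, Atp5c1, Atp5g2, Atp5h and Atp5k. These were 3 of the 14 members with a promoter that were lower in db/db and 4 of the 16 that were not called. The ERR site was found in 2 of 32 members (6.25%, against 4.70% of genes), the ETS letters CCGGAAGT in 3 (9.38%, against 3.23%) and the YY1 letters AAGATGGCG in 1 (3.13%, against 0.710%). No match of one motif overlapped a match of another, and a match describes letters only.

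Subunit transcripts of all 4 complexes were less abundant in db/db BAT, among them Sdha, Uqcr10, Cox6a1 and Atp5j2, while Cox6a2, Atp5g1 and Atp5g3 were more abundant. Of the 44 members tested, 19 (43.2%) were lower in db/db, 3 were higher and 22 were not called, where 27.7% of the 9264 genes tested were called, 11.9% as lower and 15.8% as higher (edgeR, adjusted p under 0.05). The count of lower members was 12 without WT 2, 13 without WT 4 and 0 with the level of skeletal muscle genes as a covariate. With that covariate only Cox6a2 of the higher members kept its call. The Atp5g3 call was lost in 7 of the 8 fits that left out a library. The log2 fold change was negative for 38 of 44 members, and its median was -0.35 over the members and 0.01 over all genes. The falls of the 19 lower members lay between 0.37 and 0.82 on the log2 scale, which is 0.772 to 0.567 times the WT level. In 17 members all 4 db/db libraries lay below all 4 WT libraries, in 3 they lay above and in 24 the genotypes overlapped. Of all genes, 12.7% lay entirely below and 15.3% entirely above. Of the 19 lower members 15 showed no overlap, and the other 2 members without overlap, Atp5c1 and Atp5h, were not called. The 22 members not called had log2 fold changes between -0.38 and 0.30 with a median of -0.23, 19 of them negative, and Cox7b lay nearest to the threshold (edgeR adjusted p = 0.0504). Since this is bulk tissue, fewer cells of a type and less RNA per cell cannot be told apart.

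**Figure D1:**
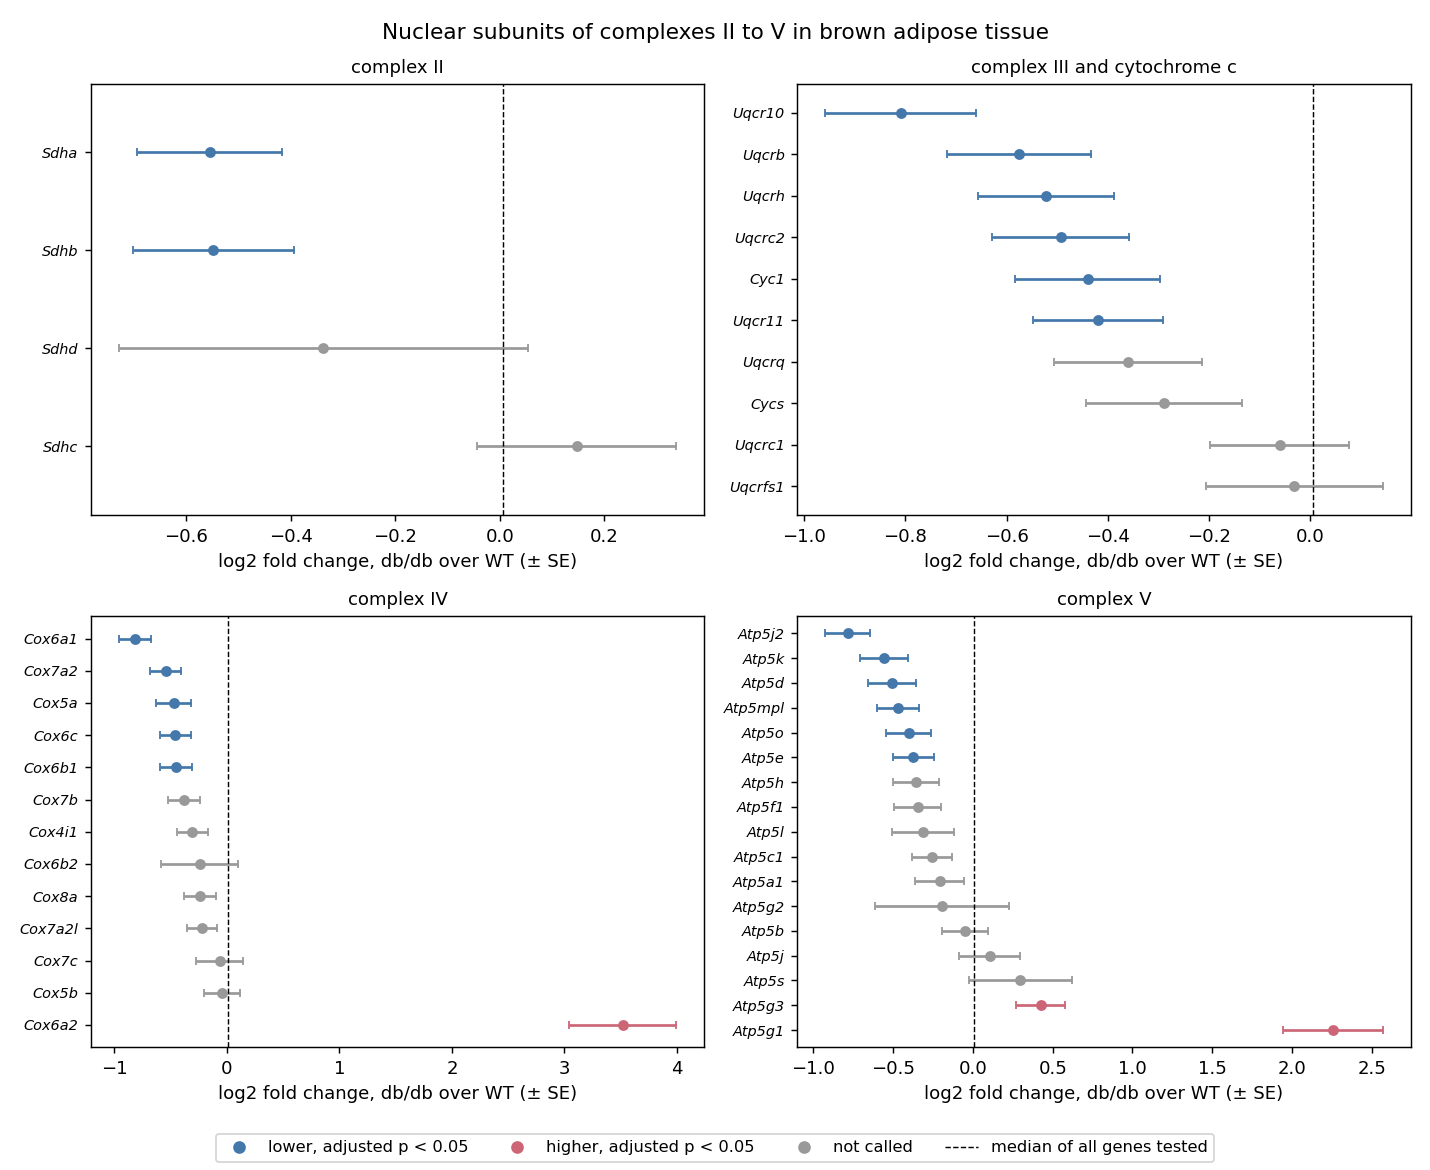
Log2 fold change of db/db over WT with its standard error (horizontal axis, a different scale in each panel) for the 44 tested members, one panel per complex, coloured by call. All 10 genes of complex III and cytochrome c lie left of 0, whereas Cox6a2 stands at 3.52 and Atp5g1 at 2.26.

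As a share of all counts, the members took 5.53% ± 0.156 of the WT libraries and 4.09% ± 0.297 of the db/db libraries (mean ± SD, n = 4). Their summed level was 53666, 58304, 52331 and 56170 CPM in WT 1 to 4 and 34548, 43302, 42400 and 46823 CPM in db/db 1 to 4. Every db/db library lay below every WT library, and db/db 1 was the lowest. The sum over complex II in db/db was 0.718 times that in WT, that over complex III and cytochrome c 0.737 times, that over complex IV 0.747 times and that over complex V 0.795 times. None of the 4 sums overlapped between the genotypes. The library db/db 1 held the lowest db/db value for 35 of 44 members, and db/db 4 held the highest for 27. Without db/db 1 the median log2 fold change was -0.26 and 15 members were lower, within the range of 12 to 20 found on leaving out each library in turn.

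**Figure D2:**
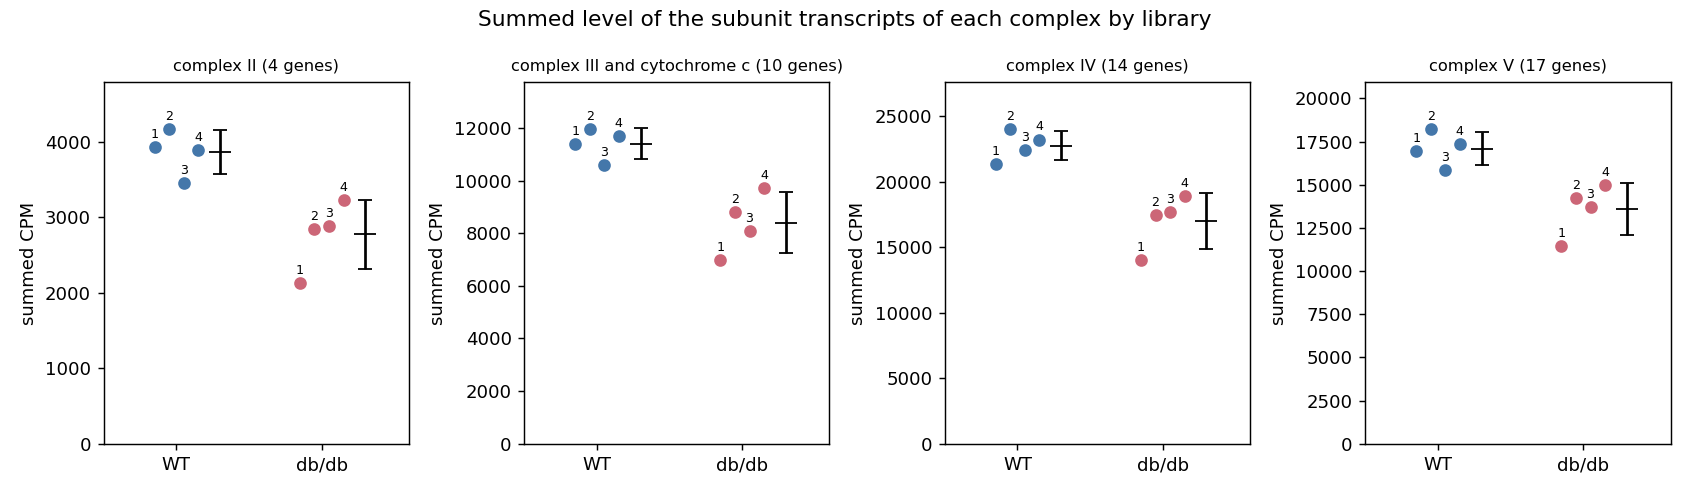
Summed CPM of the members of each complex (vertical axis, from 0) in each library, with the replicate number beside each point and the mean ± SD of 4 libraries beside each genotype. In each panel the db/db points lie below the WT points, and db/db 1 is the lowest.

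In complex II the catalytic subunits were lower in db/db and the membrane anchors were not called. Sdha, the flavoprotein that oxidises succinate, stood at 1278, 1405, 1192 and 1314 CPM in WT and at 696, 879, 972 and 983 CPM in db/db. The genotypes did not overlap, and the log2 fold change was -0.56 ± 0.14 (SE, edgeR adjusted p = 0.00588). Sdhb, the iron-sulfur subunit, stood at 2428, 2349, 1854 and 2236 CPM in WT and at 1183, 1472, 1522 and 1887 CPM in db/db. Its highest db/db library, db/db 4, lay just above the lowest WT library, WT 3, and the log2 fold change was -0.55 ± 0.15 (SE, edgeR adjusted p = 0.0128). The anchors Sdhc and Sdhd bind ubiquinone and heme in the inner membrane. Sdhc stood at 202, 356, 379 and 310.3 CPM in WT and at 248, 437, 368 and 328.5 CPM in db/db (edgeR adjusted p = 0.611). Sdhd stood at 30.4, 55.7, 34.9 and 32.7 CPM in WT and at 6.02, 56.3, 28.4 and 30.9 CPM in db/db (edgeR adjusted p = 0.566). Both genes overlapped between the genotypes, and db/db 1 stood apart from the other libraries for Sdhd.

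In complex III and cytochrome c, 6 of 10 members were lower, or 4 to 7 on leaving out each library in turn. Of the 5 accessory subunits 4 were lower, with a median log2 fold change of -0.52, and of the 4 core subunits 2 were lower, with a median of -0.25. Among the core subunits, Uqcrc2 stood at 1080, 1285, 1063 and 1212 CPM in WT and at 692, 935, 797 and 871 CPM in db/db, with no overlap (log2 fold change -0.49 ± 0.14 SE, edgeR adjusted p = 0.011). Its partner core protein Uqcrc1 stood at 1110, 1025, 901 and 1182 CPM in WT and at 876, 1076, 942 and 1151 CPM in db/db. The 2 genotypes covered nearly the same range for Uqcrc1, and the 95% interval of its log2 fold change spanned -0.35 to 0.23. Cyc1, the cytochrome c1 subunit, was lower by 0.44 on the log2 scale (edgeR adjusted p = 0.0293, a call lost in 3 of the 8 fits that left out a library), and Uqcrfs1, the Rieske iron-sulfur protein, had a log2 fold change of -0.03 and was not called.

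Among the accessory subunits, Uqcr10 stood at 1983, 1971, 1603 and 1883 CPM in WT and at 968, 941, 969 and 1367 CPM in db/db. The highest db/db library stayed below the lowest WT library, and the log2 fold change was -0.81 ± 0.15 (SE, edgeR adjusted p = 0.000524). Uqcrb stood at 878, 1026, 1056 and 1054 CPM in WT and at 520.1, 786, 675 and 712 CPM in db/db (log2 fold change -0.58, edgeR adjusted p = 0.00573). Uqcrh, the hinge protein beside cytochrome c1, stood at 1864, 1907, 1664 and 1741 CPM in WT and at 1027, 1290.4, 1259 and 1421 CPM in db/db (log2 fold change -0.52, edgeR adjusted p = 0.00763). Neither gene overlapped between the genotypes. Uqcr11 stood at 924, 903, 781 and 909.6 CPM in WT and at 594, 635, 639 and 762 CPM in db/db, again with no overlap (log2 fold change -0.42, edgeR adjusted p = 0.0215), and its call was also lost in 3 of the 8 fits. Uqcrq stood at 2233, 2288, 2068 and 2252 CPM in WT and at 1392, 1787, 1559 and 2153 CPM in db/db, where db/db 4 lay within the WT range and the gene was not called (edgeR adjusted p = 0.0767). The mobile carrier Cycs stood at 229.9, 203, 192 and 224 CPM in WT and at 135, 201, 145 and 213 CPM in db/db (edgeR adjusted p = 0.179). Its db/db 2 and db/db 4 libraries lay within the WT range and the other 2 below it.

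In complex IV, 5 of 13 tested members were lower and 1 was higher, with 3 lower without WT 2 and 2 without WT 4. Cox6a1 stood at 4563, 4515, 4021 and 4507 CPM in WT and at 2042, 2476, 2578 and 2883 CPM in db/db. It had the smallest adjusted p of the lower members, with a log2 fold change of -0.82 ± 0.14 (SE, edgeR adjusted p = 0.000307), and the genotypes lay far apart. Cox7a2, the isoform of subunit 7a found in most tissues, stood at 2283, 2144, 1933 and 2111 CPM in WT and at 1191, 1406, 1460.1 and 1751 CPM in db/db (log2 fold change -0.54, edgeR adjusted p = 0.00764). Cox6c stood at 4627, 4526, 4380.3 and 4599 CPM in WT and at 2659, 3263, 3574 and 3709 CPM in db/db (log2 fold change -0.46, edgeR adjusted p = 0.0213). Neither overlapped between the genotypes. Cox6b1, which faces the intermembrane space, stood at 1947, 2602, 2528 and 2437 CPM in WT and at 1455, 1750.1, 1791 and 1962 CPM in db/db, with WT 1 just below db/db 4 (log2 fold change -0.45, edgeR adjusted p = 0.0247). Cox5a was also lower, by 0.47 on the log2 scale (edgeR adjusted p = 0.0332). The call of Cox5a was lost in 4 of the 8 fits that left out a library and that of Cox6b1 in 3.

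Of the 7 members of complex IV that were not called, all had a negative log2 fold change. Cox4i1, the main isoform of subunit 4, stood at 2057, 1916, 1772 and 1844 CPM in WT and at 1213, 1535, 1607 and 1781 CPM in db/db (edgeR adjusted p = 0.114). Its db/db 4 library was the only one inside the WT range. Cox7c stood at 1095, 2119, 2303 and 1954 CPM in WT and at 1344, 2311, 1845 and 1640.1 CPM in db/db, with overlap throughout (edgeR adjusted p = 0.85). Cox7a2l stood at 315, 291, 243 and 299.7 CPM in WT and at 218, 225, 249 and 294 CPM in db/db (edgeR adjusted p = 0.249). Cox4i2, the isoform of subunit 4 induced by low oxygen in lung, stood at 2.43, 0.844, 1.5 and 0 CPM in WT and at 1.8, 0.636, 3.1 and 0.744 CPM in db/db, which is 0 to 7 counts, and was not tested. Cox7a1 and Cox8b, the isoforms of heart, muscle and brown fat that the choice of members left out, were both lower, with log2 fold changes of -0.49 (edgeR adjusted p = 0.022) and -0.63 (edgeR adjusted p = 0.00585).

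In ATP synthase, 6 of 17 members were lower, or 3 without WT 2, and 2 were higher, and the catalytic pair was not called. Atp5b, the catalytic beta subunit, stood at 2674, 3069.9, 2729.6 and 2950 CPM in WT and at 2149, 2992, 2919.8 and 2986 CPM in db/db. Only db/db 1 lay outside the WT range, and the 95% interval of the log2 fold change spanned -0.35 to 0.25. Atp5a1, the alpha subunit, stood at 2165, 2729, 2321 and 2396 CPM in WT and at 1541, 2521, 2154 and 2107 CPM in db/db (edgeR adjusted p = 0.346). Atp5d, the delta subunit at the foot of the central stalk, stood at 976, 1004, 782 and 966 CPM in WT and at 488, 663, 727 and 747 CPM in db/db, with no overlap (log2 fold change -0.51, edgeR adjusted p = 0.0173). Of the 5 subunits of the F1 part, Atp5d and Atp5e were lower, and all 5 had a negative log2 fold change. The call of Atp5e was lost in 7 of the 8 fits that left out a library.

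The other 4 falls were in the stalk and membrane part, of whose 11 subunits 4 were lower and 2 higher. Atp5j2, the f subunit, stood at 2841, 2666, 2375 and 2643 CPM in WT and at 1248, 1559, 1525 and 1776 CPM in db/db. No db/db library came near the WT range, and the log2 fold change was -0.79 ± 0.14 (SE, edgeR adjusted p = 0.000406). Atp5k, the e subunit that joins ATP synthase into dimers, stood at 2443, 2338, 1828 and 2166 CPM in WT and at 1329, 1302, 1449 and 1882 CPM in db/db, where db/db 4 lay just above WT 3 (log2 fold change -0.56, edgeR adjusted p = 0.0102). Atp5mpl, a small proteolipid of the membrane part, stood at 677, 633, 579 and 720.3 CPM in WT and at 484, 417, 443 and 542 CPM in db/db, with no overlap (log2 fold change -0.47, edgeR adjusted p = 0.0126). Atp5o, of the peripheral stalk, was lower by 0.40 on the log2 scale (edgeR adjusted p = 0.0393), a call lost in 6 of the 8 fits that left out a library.

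**Figure D3:**
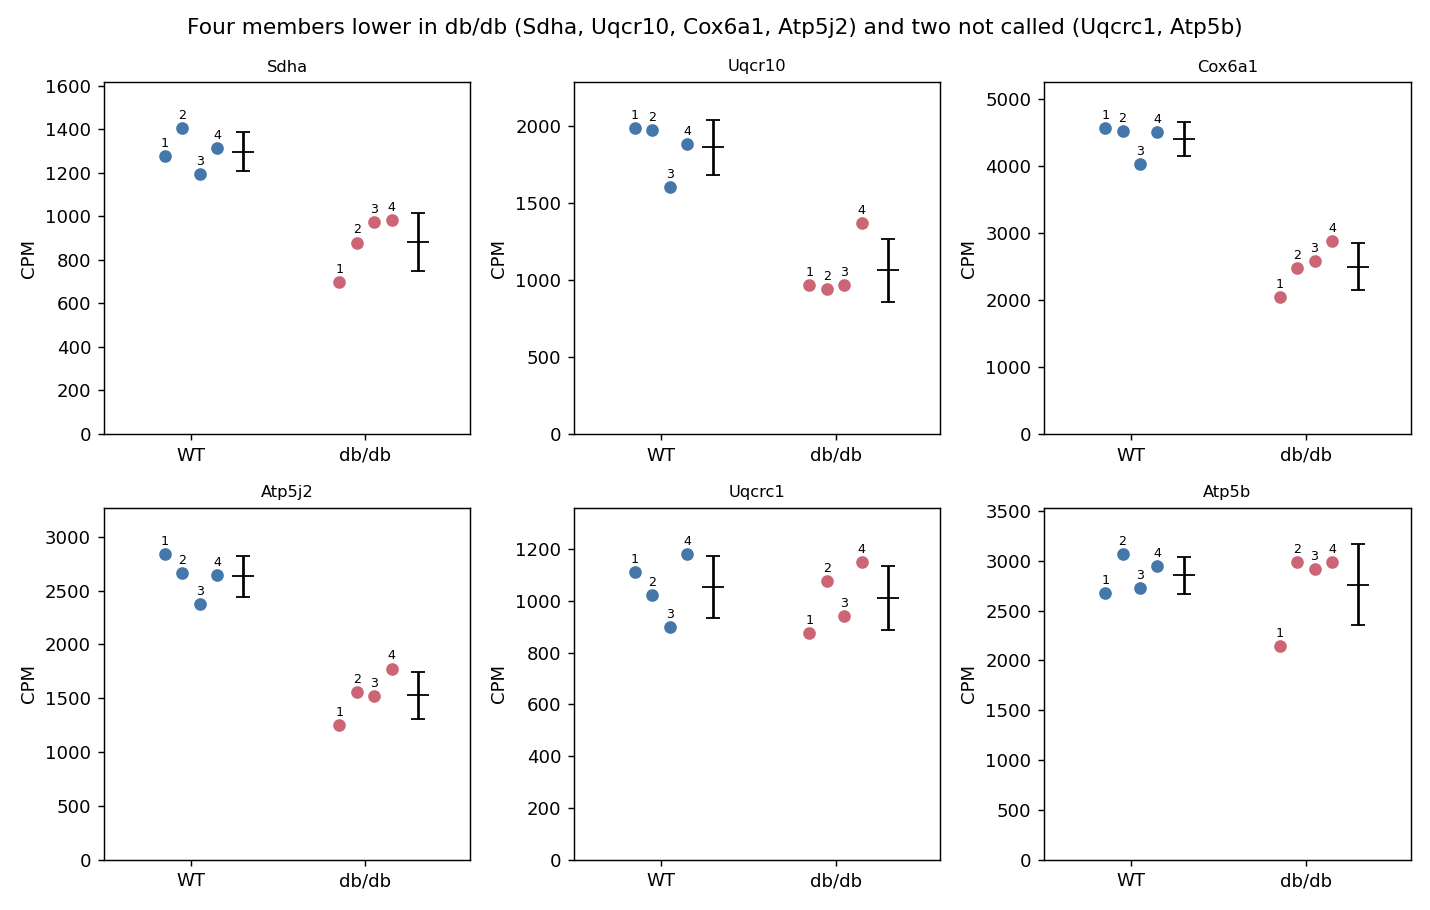
CPM of 6 members in each library (vertical axis, from 0), with replicate numbers and the mean ± SD of 4 libraries per genotype. Sdha, Uqcr10, Cox6a1 and Atp5j2 lie lower in every db/db library than in any WT library, whereas the core subunits Uqcrc1 and Atp5b share their range apart from db/db 1.

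The 3 members that were higher in db/db were the muscle isoform of a complex IV subunit and the genes Atp5g1 and Atp5g3 of the ATP synthase c subunit. Cox6a2 stood at 8.5, 23.2, 14.7 and 43.3 CPM in WT and at 520.4, 113, 269.9 and 118 CPM in db/db, a log2 fold change of 3.52 ± 0.47 (SE, edgeR adjusted p = 3.01e-05). Atp5g1 stood at 14.6, 14.4, 13.5 and 30.6 CPM in WT and at 153, 64.3, 70.9 and 58.4 CPM in db/db, a log2 fold change of 2.26 ± 0.31 (SE, edgeR adjusted p = 3.88e-05). In both genes db/db 1 was the highest library and WT 4 the highest of the WT libraries, and the genotypes did not overlap. Atp5g3 stood at 380.4, 524, 504 and 494 CPM in WT and at 822, 586, 580.2 and 565 CPM in db/db, a log2 fold change of 0.42 ± 0.15 (SE, edgeR adjusted p = 0.0449). Its call was lost in 7 of the 8 fits that left out a library. Atp5g2, the remaining c subunit gene, stood at 5.26, 5.91, 3.38 and 2.12 CPM in WT and at 4.21, 4.14, 2.22 and 3.72 CPM in db/db and was not called (edgeR adjusted p = 0.774).

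Within a library the ratio of an isoform pair does not depend on the scaling of that library. The log2 ratio of Cox6a2 to Cox6a1 averaged -7.85 ± 0.976 over the WT libraries against -3.57 ± 1.23 over the db/db libraries (SD, n = 4), given as a description because each gene alone already separated the genotypes. Cox6a2 held 0.186% to 0.952% of the counts of the pair in WT and 3.93% to 20.3% in db/db, so that Cox6a1 remained the larger part in every library. The log2 ratio of Atp5g1 to Atp5g3 averaged -4.77 ± 0.559 over the WT libraries against -2.98 ± 0.381 over the db/db libraries (SD, n = 4). This too is a description, because both genes were higher in db/db and their log2 fold changes, 2.26 and 0.42, already differed. The ratio of Cox4i2 to Cox4i1 differed by 0.89 on the log2 scale (exact permutation p = 0.457), a value that rests on 0 to 7 counts and on the pseudocount and ran from 0.15 to 1.31 when each library was left out. Benjamini-Hochberg adjustment over the 3 ratios left the exact permutation p of Cox4i2 to Cox4i1 at 0.457.

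Genes of skeletal muscle moved with these members. Of 20 muscle genes 19 were higher in db/db (95%, against 15.8% of all genes). Their summed level was 550 to 2016 CPM in WT and 2689 to 13622 CPM in db/db. None of them was at 0 throughout a genotype, and Actn2 had 0 counts in WT 3. Their geometric mean ran 16.5, 38.3, 24 and 62.2 CPM in WT 1 to 4 and 379.6, 103, 178 and 68.8 CPM in db/db 1 to 4, so that db/db 1 was the highest here too. With the muscle level of each library as a covariate, 0 members were lower, 1 was higher (Cox6a2, log2 fold change 1.18, edgeR adjusted p = 0.00704) and 4 members had a negative change with p under 0.05 before adjustment. Under this fit the adjusted p of the 19 lower members ran from 0.16 to 0.896, their median log2 fold change went from -0.51 to -0.27 with all 19 negative, and the median standard error of the 44 members rose from 0.145 to 0.243. Atp5g1 then had a log2 fold change of 0.93 (edgeR adjusted p = 0.0712) and Atp5g3 one of -0.03. The muscle level varied within each genotype and did not overlap between them, with WT 4 and db/db 4 the nearest libraries.

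**Figure D4:**
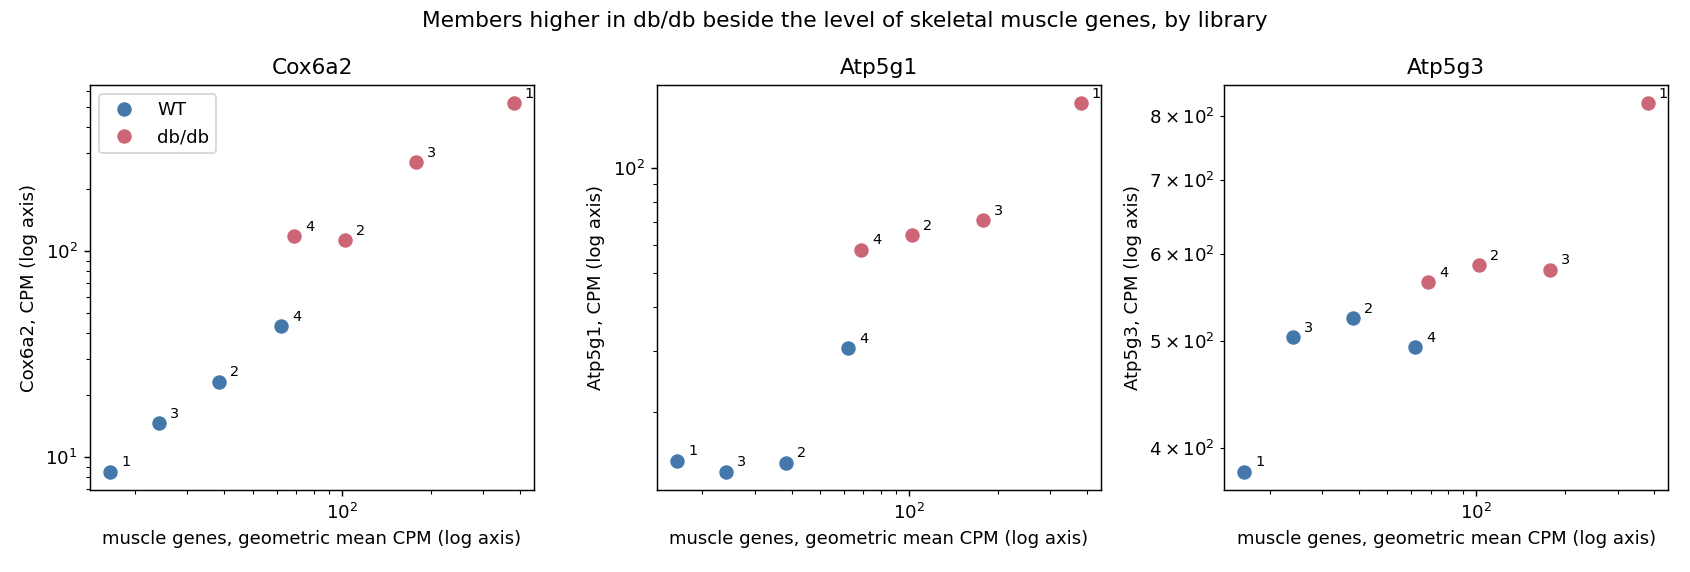
CPM of Cox6a2, Atp5g1 and Atp5g3 (vertical axes, log scale) against the geometric mean CPM of 20 skeletal muscle genes (horizontal axis, log scale) in the 8 libraries, numbered by replicate. Points of both genotypes run upward together for Cox6a2, from WT 1 at 8.5 CPM to db/db 1 at 520.4 CPM.

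Markers of other cells moved as well. Of all genes tested, 15.8% were called higher and 11.9% lower. Macrophage genes were higher for 7 of 9, with a summed level of 114 to 152 CPM in WT and 636 to 1172 CPM in db/db. Cd14 and Ptprc had log2 fold changes of -1.03 and 1.16 and were not called. Endothelial genes were lower for 3 of 5, with 238 to 300.3 CPM in WT and 166 to 199 CPM in db/db. Of the 5 brown adipocyte genes tested, Ucp1, Cidea and Ppargc1a were lower, and Prdm16 and Otop1 had log2 fold changes of 0.56 and 0.35 and were not called. The summed level of the list of 8, most of it Cidea and Ucp1, was 5996 to 7621 CPM in WT and 2370 to 4469 CPM in db/db, while its geometric mean overlapped, at 23.1 to 31.8 CPM in WT and 21.05 to 29.4 CPM in db/db. Its member Cpt1b was at 0 in every db/db library and had at most 1 count in WT. General adipocyte genes were higher for 2 of 4, with 8092 to 14586 CPM in WT and 13803 to 18730 CPM in db/db, and white adipocyte genes for 4 of 5, with 106 to 321 CPM in WT and 1880 to 2895 CPM in db/db. The part of these cells in the levels of the members was not tested.

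The mitochondrially encoded subunits of the same complexes gave a mixed picture. Of 6 such genes, 5 were tested, and mt-Atp6 (log2 fold change -0.54, edgeR adjusted p = 0.0141) and mt-Co3 (-0.53, edgeR adjusted p = 0.0183) were lower while mt-Co1 was higher (0.39, edgeR adjusted p = 0.0451). Their summed level was 53804 to 77944 CPM in WT and 52884 to 78356 CPM in db/db, a ratio of 1.02. Nearly all of it was mt-Cytb, with a log2 fold change of 0.01. The sum of the nuclear members had a ratio of 0.758. Mean WT levels were 60.3 CPM for mt-Atp6, 51.6 for mt-Co3 and 35.3 for mt-Co2, against 3458 for mt-Co1 and 65148 for mt-Cytb. How completely each of these transcripts was captured was not tested.

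Of 38 tested assembly factors, which help to put complexes II to V together, 5 were lower (13.2%, against 11.9% of all genes) and 2 were higher (5.26%, against 15.8%), with a median log2 fold change of -0.15. The lower ones with the smallest adjusted p were Sco2, which delivers copper to complex IV (log2 fold change -1.15, edgeR adjusted p = 0.00289), Cmc2 (-0.65, edgeR adjusted p = 0.0176) and Coa5 (-0.46, edgeR adjusted p = 0.032). The higher ones were Cox19, a copper-binding factor of complex IV (0.66, edgeR adjusted p = 0.00767), and Cox15, which makes its heme a (0.57, edgeR adjusted p = 0.0245). Of 38 genes named as nuclear subunits of complex I, 20 were lower (52.6%, against 11.9% of all genes) and 1 was higher (2.63%, against 15.8%). Their median log2 fold change was -0.38, and their summed level in db/db was 0.765 times that in WT. That list was taken by name and includes Ndufa4, a subunit of complex IV, and Ndufa4l2.

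Some members share sequence or position with other genes, and the sources used here do not say if reads were counted by strand. At least 1 other annotated gene was 97% identical or more over 75 bases for 19 members, among them Cycs, Uqcr11, Uqcrb, Uqcrc2, Cox4i1, Cox6c, Cox7a2l, Cox7c, Atp5a1, Atp5g1, Atp5g2 and Atp5o, mostly processed pseudogenes or overlapping neighbours. Values of these genes, and of Sdha, Uqcrh, Cox6a2, Atp5b and Atp5d, which overlap another annotated gene, are therefore uncertain to the extent that reads were shared. Of the 19 lower members, 11 overlap no other annotated gene.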

How the data were processed

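Bulk RNA-seq counts of 4 WT and 4 db/db BAT samples were used, grouped by the genotype in the sample titles. According to the methods of the study, the authors trimmed single-end 75-base reads with bbduk, aligned them to mm10 with STAR, counted them per gene with HTSeq-count and deposited raw counts, whereas the submitters' processing notes name Trimmomatic, HISAT2 and DESeq2. Whether PCR copies were collapsed is not given in the sources used here, so precision set by depth covers counting error only. The normalized table and the sample sheet were not used.

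Of 31053 Ensembl identifiers 31011 matched GENCODE M21. Genes were filtered with filterByExpr (minimum count 10, minimum total 15), which kept 9264, scaled by TMM and tested with the edgeR 4.0.16 quasi-likelihood F test (R 4.3.3) on genotype alone. Benjamini-Hochberg adjustment ran over all 9264 genes, with calls at 0.05. CPM is the count over the total of the kept genes and the TMM factor, times 1e6. Standard errors came from the F statistic and the intervals of 95% from the t distribution with 17.3 degrees of freedom. Isoform ratios used a pseudocount of 0.5 and an exact two-sided permutation test, whose p-value is given for Cox4i2 to Cox4i1 only. The muscle level was the mean log2 CPM of the 20 genes.

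Values in every library are given for complex II, Cycs, in each other complex the called members with the smallest adjusted p (up to 5) and 2 uncalled members with the highest CPM, all members called higher and the isoform genes. Other members named with a fold change were chosen after their values were seen. Members and lists were chosen with earlier results of these data known. The labels number the samples within a genotype, and p-values measure the spread between these samples. Replicates numbered alike come from different animals. The smallest chi-square per degree of freedom between libraries of a genotype was 4.20, so no library was a copy of another. The code was tested on simulated counts. Alternatives were DESeq2 1.42.0, limma-voom 3.58.1, other scalings and filters, the muscle level as covariate, the replicate number as a block, other pseudocounts and leaving out each library.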

Additional observations from a re-analysis of the deposited data

Results flagged for a closer look

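Within a genotype, 9 values stood further from the other 3 libraries than Dixon's limit allows, out of 108 sets of 4 values examined, where chance gives about 5.4. Of these, 4 belong to db/db 1. Cyc1 was at 382 CPM in db/db 1 against 560.3 to 593 CPM in the other db/db libraries, and Atp5b at 2149 CPM against 2919.8 to 2992 CPM. Both lay low in the library with the highest muscle level. Atp5g1 was at 153 CPM in db/db 1 against 58.4 to 70.9 CPM, and Atp5g3 at 822 CPM against 565 to 586 CPM, both high in the same library.

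In db/db 4 Uqcr10 was at 1367 CPM against 941 to 969 CPM in the other db/db libraries, still below all WT libraries. Among the WT libraries, WT 3 was low for Cox6a1, at 4021 CPM against 4507 to 4563 CPM, and for Uqcr11, at 781 CPM against 903 to 924 CPM. WT 1 was low for Uqcrb, at 878 CPM against 1026 to 1056 CPM. WT 4, the WT library with the highest muscle level, was high for Atp5g1, at 30.6 CPM against 13.5 to 14.6 CPM.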

How the results depend on the processing

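With the muscle level as covariate the counts of lower members were 0 in all, 0 in complex II, 0 in complex III and cytochrome c, 0 in complex IV and 0 in complex V, 1 member was higher, 626 genes were called in all, the median log2 fold change of the members was -0.11 and that of Atp5g3 turned to -0.027. Leaving out each library gave 12 to 20 lower members, 2 to 6 in complex IV and 3 to 6 in complex V. There were 12 without WT 2 and 13 without WT 4, with 3 in complex IV and 3 in complex V without WT 2, and 2 in complex IV without WT 4. In all 8 of these fits 11 of the 19 lower members kept their call, namely Sdha, Sdhb, Uqcr10, Uqcrb, Uqcrc2, Uqcrh, Cox6a1, Cox7a2, Atp5j2, Atp5k and Atp5mpl. Under the other scalings, filters and tools, 17 to 24 members were lower and 2 or 3 higher, with a median of -0.39 to -0.31, and Cox6a2 and Atp5g1 were higher in each. The call of Atp5g3 was lost under 4 of them, among them upper quartile scaling. The cause of these changes was not tested.

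With the replicate number as a block, 22 members were lower and 2 were higher, with Atp5g3 no longer called. Correlations of the deviations of same-numbered libraries were 0.04, 0.05, -0.08 and -0.01, so the numbers do not pair the samples. Depth limits what can be said of Cox4i2, Atp5g2, Cox6b2 and Atp5s, each with fewer than 200 counts over the 8 libraries.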
